A study of Mus musculus with 20 samples.

Results

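The Id genes (Id1, Id2, Id3 and Id4) encode the inhibitors of DNA binding, and all probe sets that the platform annotation assigns to one of these 4 symbols alone were examined. These were 8 of the 45037 probe sets of the array: 1 for Id1 (1425895_a_at), 3 for Id2 (1435176_a_at, 1422537_a_at and 1453596_at), 1 for Id3 (1416630_at) and 3 for Id4 (1423260_at, 1450928_at and 1423259_at). The 4 genes were tested among 18193 genes, and the probe set with the highest mean over all arrays stood for a gene. The cells were Hepa1-6, an established mouse hepatoma line of C57L origin, so 1 line stands for hepatocyte-derived tumour cells here. All 10 groups had been kept without growth factors for 4 h before the start. The treated arm then received 1 ng/ml of TGFβ1 and the untreated arm received no addition, and biological duplicates of each arm were harvested at 0, 1, 3, 6 and 10 h, which gave 20 arrays. The labels call treated and untreated cells at 0 h equivalent.

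ID proteins have a helix-loop-helix domain that binds other helix-loop-helix proteins, but they lack the basic region that contacts DNA. They pair with the E proteins and so keep these from binding E-box sites with their tissue-restricted partners. ID proteins are generally linked to proliferation and to the restraint of differentiation. Id1, Id2 and Id3 are textbook targets of BMP signalling through SMAD1 and SMAD5, and TGFβ can raise or lower their transcripts depending on the cell and the time.

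The RefSeq promoter table of the build GRCm38.p6 held 3 of the 4 Id genes, Id2, Id3 and Id4. The 250 bases before each start are shown because 2 of these genes responded together and the third stayed dim. They are written 5′ to 3′ on the strand of the gene, and capitals mark the letters GGCGCC, a GC-rich element that SMAD proteins can bind, and CAGAC, the core of the SMAD box, or its reverse complement.
Id2, chr12:25096093-25096342, minus strand: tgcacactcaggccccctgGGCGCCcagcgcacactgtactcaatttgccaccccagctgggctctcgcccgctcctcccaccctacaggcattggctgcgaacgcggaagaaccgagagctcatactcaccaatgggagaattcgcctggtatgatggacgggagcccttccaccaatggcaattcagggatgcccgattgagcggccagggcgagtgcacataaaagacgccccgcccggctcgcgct
Id3, chr4:136143572-136143821, plus strand: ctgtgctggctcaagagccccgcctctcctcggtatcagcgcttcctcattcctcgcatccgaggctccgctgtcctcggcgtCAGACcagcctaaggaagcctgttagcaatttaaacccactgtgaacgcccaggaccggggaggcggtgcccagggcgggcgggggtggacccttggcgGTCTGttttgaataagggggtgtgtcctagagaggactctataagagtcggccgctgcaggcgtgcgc
Id4, chr13:48260866-48261115, plus strand: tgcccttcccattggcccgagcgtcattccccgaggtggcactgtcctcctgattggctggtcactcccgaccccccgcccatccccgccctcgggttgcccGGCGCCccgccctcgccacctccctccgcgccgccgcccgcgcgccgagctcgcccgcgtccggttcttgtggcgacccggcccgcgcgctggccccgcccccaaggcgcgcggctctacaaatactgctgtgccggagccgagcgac
Positions are counted back from the start of the gene, and both strands were searched. GGCGCC occurred in Id2 at -231 and in Id4 at -148, and in 9.59% of all 32851 promoters of this length. CAGAC occurred in Id3 at -167 and, on the minus strand, at -68, and in 42.2% of all promoters. TGACG, the core of the cAMP response element, was in Id3 at -170, where it shares 2 bases with the CAGAC match, and in Id4 at -229, and in 17.8% of promoters. GGGCGG, the GC box, had 1 match in Id2, 2 overlapping matches in Id3 and 5 in Id4 (32.7% of promoters). CCAAT had 3 matches in Id2 and 2 in Id4 (33.8%), and CANNTG, the E-box that E proteins bind, had 1 match in Id2 at -196 (66.2%). These matches describe the letters of this window only.

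The values are log2 expression values made with RMA, which normalizes arrays to each other, so a difference is measured against the remaining transcripts. Array medians lay between 5.15 and 5.21, and duplicates correlated at 0.996 to 0.997 over all probe sets. Of 9 hepatocyte markers measured, 8 were above the array median on all 20 arrays. The brightest were albumin (Alb, 11.7 to 12.5) and alpha-fetoprotein (Afp, 12.4 to 13.0). Others lay near the median, such as Ttr (5.3 to 6.2) and Apoh (5.2 to 5.9), and Apob was above it on 12 arrays only. None of 6 endothelial and none of 3 lymphocyte markers were above the median on all 20 arrays. By that rule 1 of 7 macrophage, 2 of 6 stellate and fibroblast (decorin, Dcn, at 13.3 to 13.5) and all 4 cholangiocyte markers were. Some others were above it on part of the arrays, such as Kdr (endothelial) on 14, Cd3e (lymphocyte) on 3, and Adgre1 (macrophage) and Pdgfrb (stellate) on 16 each. Differences were tested with limma over all genes with Benjamini-Hochberg adjustment and a threshold of 0.05 for the adjusted p. A p-value sets a difference against the spread between duplicate cultures of this line, estimated over all 10 groups together.

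At the start the arms did not separate. Treated minus untreated at 0 h called 0 of the 4 Id genes and 0% of all genes, and 740 genes (4.07%) had an unadjusted p under 0.05. The Id1 values were 10.91 and 10.95 in both arms. The largest Id difference at 0 h was 0.14 (Id4, 4.65 and 4.62 against 4.48 and 4.52), with an adjusted p of 1.00 by limma. Its groups did not overlap, as was the case for 32.0% of all genes at this time.

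After 1 h of TGFβ1, 3 of the 4 Id genes were higher than in untreated cells, and the higher calls made up 1.91% of all genes (all calls 2.24%). The median difference of the 4 genes was 1.80 on the log2 scale, against -0.01 for all genes. Id2 had the largest difference, and those of Id1 and Id3 were of equal size. Since bulk RNA was measured, a change in every cell and a change in some of the cells cannot be told apart. For Id1, Id2 and Id3 both treated arrays lay above both untreated arrays, a separation in either direction that 34.8% of all genes showed at this time.

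Id1 is the member with the highest values on this array, although values of different probe sets cannot be ranked as levels. It stood at 12.89 and 12.96 in treated cells at 1 h and at 11.04 and 11.21 in untreated cells. The difference was 1.80 ± 0.05 (SE), a 3.47-fold higher level, with a limma adjusted p of 1.25e-16. Id2, known for its binding to the retinoblastoma protein besides E proteins, was at 12.10 and 11.99 in treated and at 9.88 and 9.53 in untreated cells by the probe set 1435176_a_at. It was 5.05-fold higher (2.34 ± 0.10, limma adjusted p = 3.50e-13). Id3 was at 11.18 and 11.25 against 9.42 and 9.41, a 3.48-fold higher level (1.80 ± 0.07, limma adjusted p = 8.27e-14). The treated duplicates at 1 h were the highest of all 20 arrays for each of these 3 genes. None of 14 alternative fits, which included leaving out each of the compared arrays, took the call away from Id1, Id2 or Id3 at this time.

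**Figure D1:**
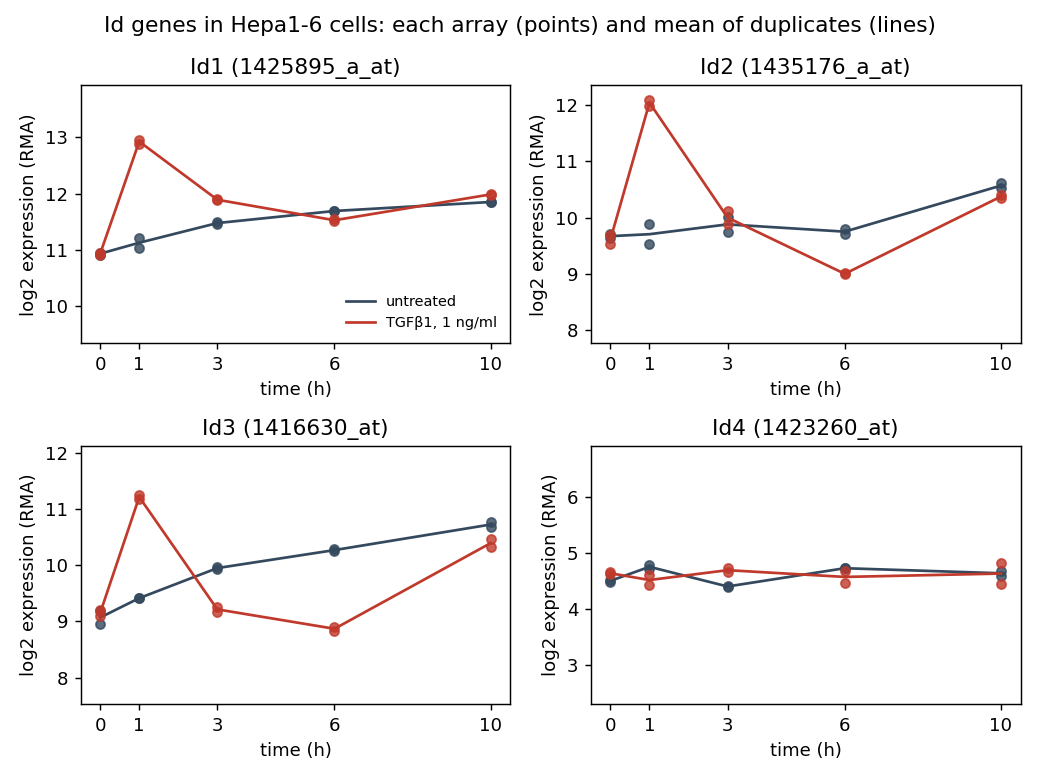
Log2 expression (RMA) of Id1, Id2, Id3 and Id4 by time in hours, with 1 representative probe set per gene. Points are the 20 arrays, lines join the means of duplicates (red, TGFβ1; dark blue, untreated), and each panel spans the same number of log2 units; treated arrays of Id1, Id2 and Id3 peak at 1 h, while Id4 stays between 4.39 and 4.82.

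By 3 h Id1 and Id3 had parted. At this time 1 Id gene was higher and 1 lower than in untreated cells, where 6.73% of all genes were called higher and 8.55% lower (15.3% in all). Id1 remained higher, with 11.88 and 11.90 in treated cells against 11.49 and 11.46 (0.42 ± 0.05, limma adjusted p = 9.16e-07). Id3 was now lower, with 9.17 and 9.26 against 9.97 and 9.93, a difference of -0.74 ± 0.07 or 1.67-fold (limma adjusted p = 5.70e-08). The duplicates of both genes were separate, as for 51.2% of all genes.
Id2 lay between them at 9.89 and 10.11 in treated and 10.01 and 9.75 in untreated cells. These groups overlapped, and the difference of 0.13 did not pass (95% interval -0.08 to 0.33, limma adjusted p = 0.493). The change of the effect from 1 to 3 h was tested directly and passed for 3 of 4 Id genes, all downward, where 3.94% of all genes changed downward and 6.41% in either direction. It was -1.38 ± 0.07 for Id1, -2.21 ± 0.14 for Id2 and -2.54 ± 0.10 for Id3. The loss was thus 1.38 log2 units for Id1 and above 2 for the others, although differences between genes in this loss were not tested.

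At 6 h, 3 of the 4 Id genes were lower in treated than in untreated cells, where 7.96% of all genes were called lower (15.7% in all). Id3 was at 8.83 and 8.91 against 10.25 and 10.29, which is 2.64-fold lower (-1.40 ± 0.07, limma adjusted p = 3.43e-12). Id2 was at 8.99 and 9.01 against 9.80 and 9.70, 1.68-fold lower (-0.75 ± 0.10, limma adjusted p = 6.88e-06). The 2 treated arrays of Id2 at 6 h were the lowest of its 20 arrays, and so were those of Id3.
Id1 was at 11.51 and 11.54 against 11.69 on both untreated arrays, only 1.12-fold lower (-0.17 ± 0.05, limma adjusted p = 0.0152). The groups of all 3 genes were separate, as were those of 51.4% of all genes. The Id1 call was lost without treated replicate 1 (limma adjusted p = 0.110), without untreated replicate 1 (0.0679), without untreated replicate 2 (0.0773) and with no variance trend (0.0874). The effect changed downward from 3 to 6 h in 3 of 4 Id genes, where 1.69% of all genes did so and 4.55% changed in either direction. The change was -0.58 ± 0.07 for Id1, -0.88 ± 0.14 for Id2 and -0.66 ± 0.10 for Id3.

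At 10 h the arms were close again, and 1 of the 4 Id genes was called lower, where 4.06% of all genes were (9.14% in all). Id3 was at 10.33 and 10.46 in treated against 10.77 and 10.68 in untreated cells, 1.26-fold lower (-0.33 ± 0.07, limma adjusted p = 0.00252). That call was lost without treated replicate 1 (-0.27, adjusted p = 0.0746) or untreated replicate 1 (-0.29, adjusted p = 0.0556).
Id2 stood at 10.35 and 10.40 against 10.52 and 10.62, and its difference of -0.20 did not pass (95% interval -0.40 to 0.0025, limma adjusted p = 0.264). Id1 stood at 11.98 and 11.99 against 11.85 on both untreated arrays (0.14, limma adjusted p = 0.0740). The duplicates of Id1, Id2 and Id3 did not overlap at 10 h, which was the case for 50.4% of all genes. The rise of the effect from 6 to 10 h passed in 3 of 4 Id genes, where 1.11% of all genes changed upward and 2.44% in either direction. It was largest in Id3 (1.07 ± 0.10), followed by Id2 (0.55 ± 0.14) and Id1 (0.31 ± 0.07). The Id2 change no longer passed without any one of the 8 arrays concerned (adjusted p from 0.0540 to 0.159), and that of Id1 no longer passed without treated replicate 1 of 6 h or treated replicate 2 of 10 h (0.0546 and 0.0535). With no variance trend neither passed (0.177 for Id2 and 0.124 for Id1).

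**Figure D2:**
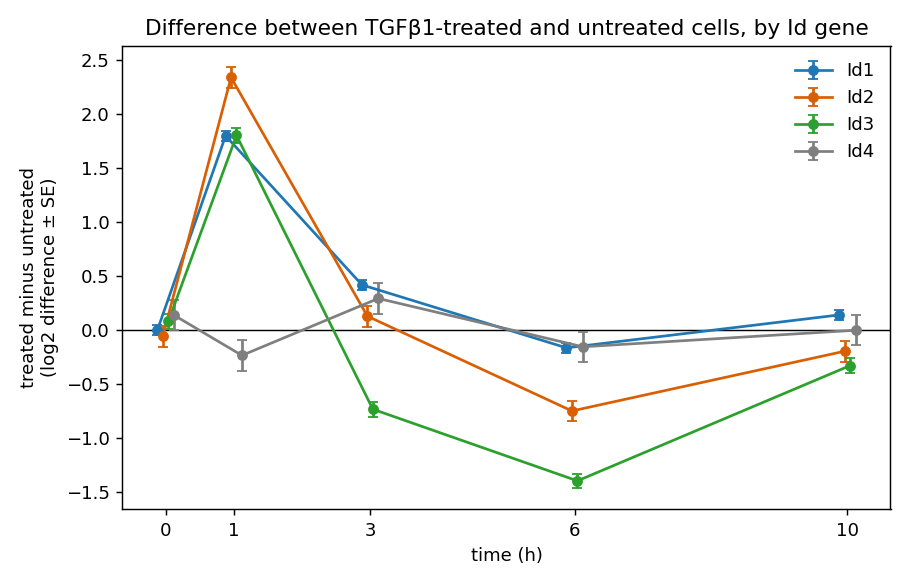
Treated minus untreated log2 difference (± SE from limma, 2 arrays per group) of the 4 Id genes at 0, 1, 3, 6 and 10 h, with points set slightly apart in time. Id1, Id2 and Id3 stand at 1.80, 2.34 and 1.80 at 1 h and at -0.17, -0.75 and -1.40 at 6 h, while no Id4 difference passed.

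The untreated arm moved as well, so each arm was also set against its own 0 h. Untreated cells gained Id transcripts with time in the medium without growth factors. By 10 h, 3 of 4 Id genes had risen, where 13.3% of all genes rose and 26.1% changed. Id3 had gained 1.65 ± 0.07 (3.15-fold), Id1 0.92 ± 0.05 (1.89-fold) and Id2 0.90 ± 0.10 (1.87-fold), each with a limma adjusted p under the threshold, the highest being 3.97e-07.
Id1 and Id3 had risen by 3 h (0.54 and 0.88) and further by 6 h (0.76 and 1.20). These were 2 of 4 Id genes at each time, where 4.95% of all genes rose by 3 h (8.16% changed) and 10.4% by 6 h (20.7% changed). At 1 h only Id3 of the 4 passed (0.34, limma adjusted p = 0.0381), where 0.104% of all genes rose and 0.187% changed, and it did not pass without untreated replicate 1 of 0 h (0.433) or either untreated array of 1 h (0.156 and 0.185), nor with array weights (0.0569), no variance trend (0.302) or the compared arrays alone (0.344). Id1 at 1 h had 0.19 (adjusted p = 0.137), and passed without untreated replicate 1 of 1 h (0.28, adjusted p = 0.0256). Id2 stayed near its start, with 0.21 at 3 h and 0.08 at 6 h (limma adjusted p = 0.245 and 0.632), by the probe set 1435176_a_at. The probe set 1422537_a_at of the same gene had risen by 0.33 at 3 h and 0.57 at 6 h (limma adjusted p = 0.00202 and 1.49e-06 over 34945 probe sets, of which 4.61% and 16.2% were called).

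In treated cells, 3 of 4 Id genes rose from 0 to 1 h (2.45% of all genes rose and 3.51% changed), by 1.99 (Id1), 2.43 (Id2) and 2.06 (Id3). At 3 h, where 7.55% of all genes rose and 15.8% changed, Id1 was still 0.96 above its start and Id2 0.39, while Id3 was back within 0.06 of it (95% interval -0.08 to 0.20, limma adjusted p = 0.649). The Id2 call at 3 h was lost without treated replicate 1 of 0 h (adjusted p = 0.0998) or treated replicate 2 of 3 h (0.137).
At 6 h, where 11.2% of all genes rose, 12.8% fell and 24.0% changed, the members went separate ways. Id2 had fallen by 0.61 ± 0.10 below its start and Id3 by 0.28 ± 0.07, while Id1 was 0.59 ± 0.05 above. The Id3 fall was lost without treated replicate 2 of 0 h (adjusted p = 0.0588) or treated replicate 1 of 6 h (0.0524). The 6 h difference between the arms therefore held a rise in untreated cells of 0.76 for Id1 and 1.20 for Id3, beside changes in treated cells of 0.59 and -0.28. At 10 h, where 14.5% of all genes rose and 28.0% changed, Id1 (1.06), Id2 (0.76) and Id3 (1.25) were all above their start in treated cells.

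**Figure D3:**
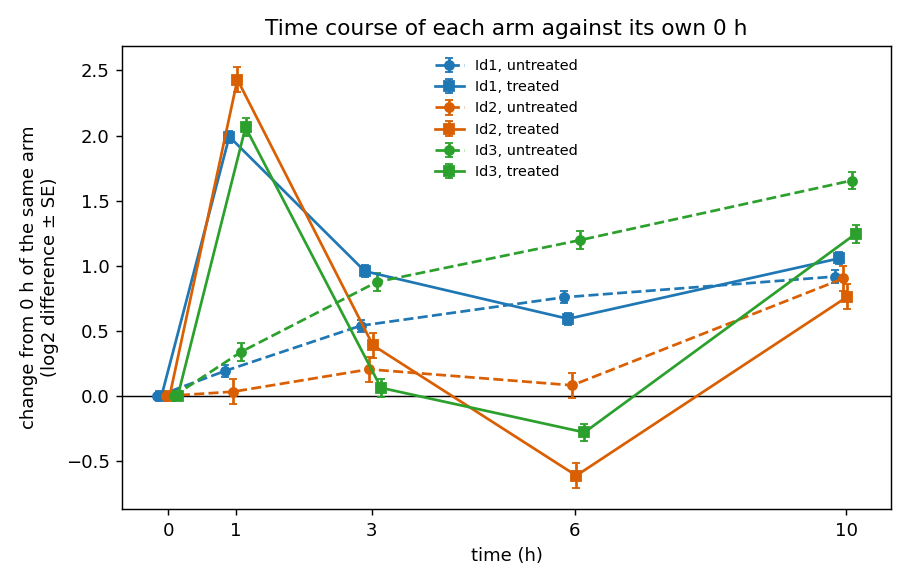
Log2 change (± SE from limma) of Id1, Id2 and Id3 from 0 h of the same arm, by time in hours; solid lines with squares are treated and dashed lines with circles untreated cells, and 0 h is set at 0. Untreated Id3 climbs to 1.65 at 10 h, and treated Id2 and Id3 lie below their start at 6 h (-0.61 and -0.28).

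Id2 was read by 3 probe sets, which share the gene and the RNA of each array and are not replicates. Over all 34945 probe sets with 1 gene, all 3 were higher at 1 h (1.71% of probe sets were called) and all 3 lower at 6 h (11.3%). At 1 h the probe set 1422537_a_at was at 11.28 and 11.21 in treated against 8.67 and 8.75 in untreated cells, a difference of 2.54 (5.80-fold). The dim probe set 1453596_at, whose untreated values at 1 h were 4.20 and 4.40, below the array medians, reached 7.12 and 7.15 in treated cells, a difference of 2.84 for which no fold is given, as its untreated level lies in the dim range.
The probe sets did not give the same call at 3 h, when 11.3% of probe sets were called. Only 1422537_a_at was higher then (9.38 and 9.40 against 9.06 and 9.00, 0.36 ± 0.06, limma adjusted p = 2.38e-04), while 1453596_at stood at -0.18 (adjusted p = 0.588). At 6 h, 1422537_a_at was 2.01-fold lower (-1.01 ± 0.06) and 1453596_at was lower by its log2 difference (-0.64 ± 0.16, limma adjusted p = 0.00962). The latter call did not hold without treated replicate 2 (adjusted p = 0.0878), without untreated replicate 2 (0.205) or with the compared arrays alone (0.0743). At 10 h, when 5.83% were called, 1422537_a_at was lower (-0.27, limma adjusted p = 0.00743), but not without treated replicate 1 (0.101) or untreated replicate 1 (0.122). The mean of the 3 probe sets of Id2 at 10 h also passed, at -0.32 (adjusted p = 0.00292). Across the 20 arrays the Id2 probe sets correlated with each other at 0.94 to 0.97.

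Id4, a member that is prominent in the nervous system, gave no call. All its values lay below the array medians: 4.39 to 4.82 for 1423260_at, 2.35 to 2.87 for 1450928_at and 2.20 to 2.90 for 1423259_at. At 1 h the first of these was at 4.43 and 4.60 in treated and 4.79 and 4.71 in untreated cells. Over the 3 probe sets and the 4 later times, 0 of 12 limma tests of treated minus untreated passed after adjustment, and 1 had an unadjusted p under 0.05. The 95% intervals of these differences lay between -0.53 and 0.60. The probe sets of Id4 correlated with each other across the 20 arrays at -0.27 to 0.15. No change of Id4 was detected, and no direction is given.

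**Figure D4:**
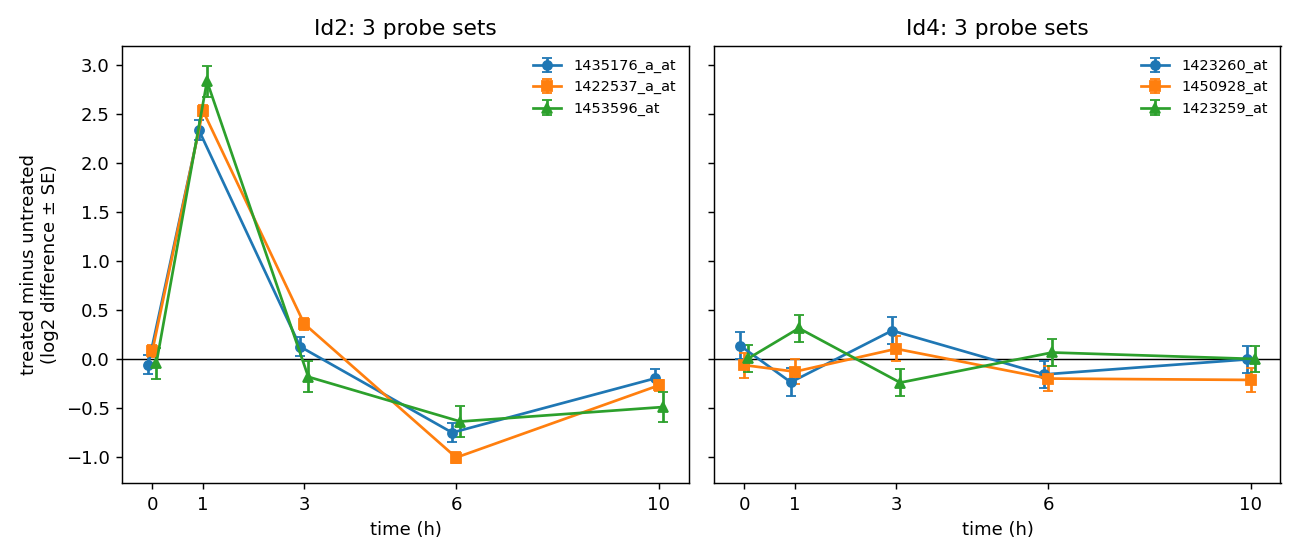
Treated minus untreated log2 difference (± SE from limma, 2 arrays per group) at 0, 1, 3, 6 and 10 h for the 3 probe sets of Id2 (left) and the 3 of Id4 (right) on 1 axis. The Id2 probe sets stand at 2.34, 2.54 and 2.84 at 1 h and at -0.75, -1.01 and -0.64 at 6 h; no Id4 difference passed.

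The E proteins are the main binding partners of ID proteins, and all 3 were measured: Tcf3 (E2A), Tcf4 (E2-2) and Tcf12 (HEB). None passed at 1 h (1.91% of all genes were higher), 2 were higher at 3 h (6.73% of all genes), and all 3 were higher at 6 h (7.77%) and 10 h (5.07%). At 6 h, when Id2 and Id3 were lowest against untreated cells, Tcf12 was higher by 0.57 ± 0.06, Tcf4 by 0.52 ± 0.07 and Tcf3 by 0.31 ± 0.06 (limma adjusted p = 5.63e-07, 1.63e-05 and 6.18e-04). The list's median at 6 h was 0.52, against -0.03 for all genes. By 6 h, 2 of the 3 E proteins had fallen from 0 h in untreated cells, where 20.7% of all genes changed. In treated cells 2 had risen (24.0% changed). By 10 h, 2 had fallen in untreated cells (26.1%), while 1 had risen and 1 fallen in treated cells (28.0%). Treated Tcf4 was at 10.87 and 11.07 at 0 h and at 10.98 and 11.11 at 6 h. Untreated Tcf4 went from 10.92 and 11.16 to 10.48 and 10.56.
Tcf4 was higher in 5 of its 6 probe sets at 6 h. Tcf12 was higher in 2 of 5 and Tcf3 in 1 of 3, and with the mean of all probe sets neither passed at 6 h (adjusted p = 0.0857 and 0.10), with Tcf12 at 0.26. At 3 h the Tcf3 call was likewise lost with that mean (0.0901), without treated replicate 1 (0.0508) and without untreated replicate 2 (0.0742). At 10 h each of the 3 calls was lost when certain single arrays were left out. For Tcf12 and Tcf4 these were treated replicate 1 (0.268 and 0.185), untreated replicate 1 (0.147 and 0.0928) and untreated replicate 2 (0.0582 and 0.123), and for Tcf3 untreated replicate 2 (0.0559). Whether the E proteins bear on the Id transcripts was not tested.

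Of 36 measured tissue-restricted bHLH factors, which pair with E proteins, 2 were higher at 1 h, where 1.91% of all genes were: Scx, a tendon factor, and Atoh8 (0.88, 1.84-fold). The Scx difference was 1.53 in 1 of its 2 probe sets and 0.71 with their mean. Its untreated values at 1 h (4.07 and 4.22) lay below the array medians, so no fold is given. In the same list 1 was higher at 3 h, where 6.73% of all genes were. At 6 h 1 was higher and 1 lower (7.77% and 7.96% of all genes). None passed at 10 h, where 9.14% of all genes were called. In the HES, HEY and BHLHE40 group of bHLH repressors, 2 of 11 were higher at 1 h, against the same 1.91% of all genes. Bhlhe40, which represses clock and metabolic genes, was 7.39-fold higher (2.89 ± 0.07), and Hes1, the Notch-responsive repressor, 3.64-fold higher (1.86 ± 0.08). Hes1 also passed in the other direction at 3 h (-0.40) and 6 h (-0.43), which are the signs of Id3 at those times, whereas Bhlhe40 was higher at all 4 times. Of 10 other reported ID partners, 3 were higher and 1 lower at 3 h, where 6.73% of all genes were higher and 8.55% lower. The ETS factors Elk3 (1.18) and Ets1 (1.05) were higher, as was Srebf1 (0.19), which governs lipid synthesis and lost its call without treated replicate 1 (adjusted p = 0.0982) or untreated replicate 2 (0.0785). Rb1, the retinoblastoma gene whose protein ID2 binds, had -0.55, with 1 of its 2 probe sets lower, and did not pass with their mean (adjusted p = 0.142).

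Upstream, 19 receptors and SMADs were measured, and at 3 h 6 were higher and 5 lower, against 6.73% and 8.55% of all genes. The list's median at 3 h was -0.02, the same as that of all genes, so the list as a whole did not shift. Genes were named by lowest adjusted p, and the 5 lower ones are not named. The higher genes with the lowest p were Bmpr2, the BMP type II receptor (1.28 ± 0.07), Acvr1, a type I receptor that activates SMAD1 and SMAD5 (1.01 ± 0.06), Tgfbr1, the TGFβ type I receptor (1.00 ± 0.06), and Smad1 itself (0.53 ± 0.05). Bmpr2 and Tgfbr1 were each higher in 2 of 3 probe sets and Smad1 in all 3. For Acvr1 the probe sets disagreed, with 2 higher and 1 lower at 3 h, and their mean stood at 0.53. At 1 h, when the Id transcripts were highest, 2 of the 19 were higher and none lower (2.24% of all genes were called). At 6 h 6 were higher and 2 lower (7.77% and 7.96% of all genes), and at 10 h 7 were higher and 1 lower (5.07% and 4.06%).
Of 12 other known targets of BMP and SMAD signalling, 3 were higher at 1 h, when Id1, Id2, Id3 and 1.91% of all genes were. These were the inhibitory SMADs Smad7 (2.45, 5.48-fold) and Smad6 (1.86, 3.64-fold), and Atoh8. At 6 h Smad7 was still higher (1.10) and Smad6 did not pass (0.23), while Atoh8 was lower (-0.68). The Atoh8 call at 6 h was lost without treated replicate 2 (adjusted p = 0.0504), and Smad6 passed without untreated replicate 1 (0.38, adjusted p = 0.0267).

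Of 10 factors reported to act on Id genes, 2 were higher and 4 lower at 3 h, against 6.73% and 8.55% of all genes. Klf10, a TGFβ-inducible zinc finger factor, was higher (1.52 ± 0.07), as was Creb1, which binds cAMP response elements (0.39 ± 0.07). Egr1, a serum-inducible zinc finger factor, was lower (-0.62 ± 0.08), as was Sp1, which binds GC boxes (-0.30 ± 0.06). Creb1 was higher in 2 of 6 probe sets and Sp1 lower in 1 of 3. From 0 to 3 h Creb1 went from 9.78 and 9.76 to 9.99 and 9.93 in treated cells. In untreated cells it went from 9.87 and 9.83 to 9.61 and 9.54. The Sp1 difference was -0.19 with the mean of its probe sets and -0.20 without treated replicate 2. Of 7 reported targets of E proteins, 3 were higher and 1 lower at 3 h, when those shares of all genes were 6.73% and 8.55%: Cdkn2b, the cell cycle inhibitor p15 (1.05), Thbs1, thrombospondin (0.82), and the dim Cdh1, E-cadherin (0.55), were higher, and Cdkn1a, the cell cycle inhibitor p21, was lower (-0.22). The Cdh1 call was lost without any one of the 4 arrays (adjusted p from 0.0928 to 0.174), and that of Cdkn1a without treated replicate 1 (0.107) or untreated replicate 2 (0.202). Both were also lost with no variance trend (0.0631 and 0.0796). Treated Cdkn1a was at 11.14 and 11.18 at 0 h and at 11.09 and 11.13 at 3 h. Untreated Cdkn1a went from 11.16 and 11.02 to 11.27 and 11.39.

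**Figure D5:**
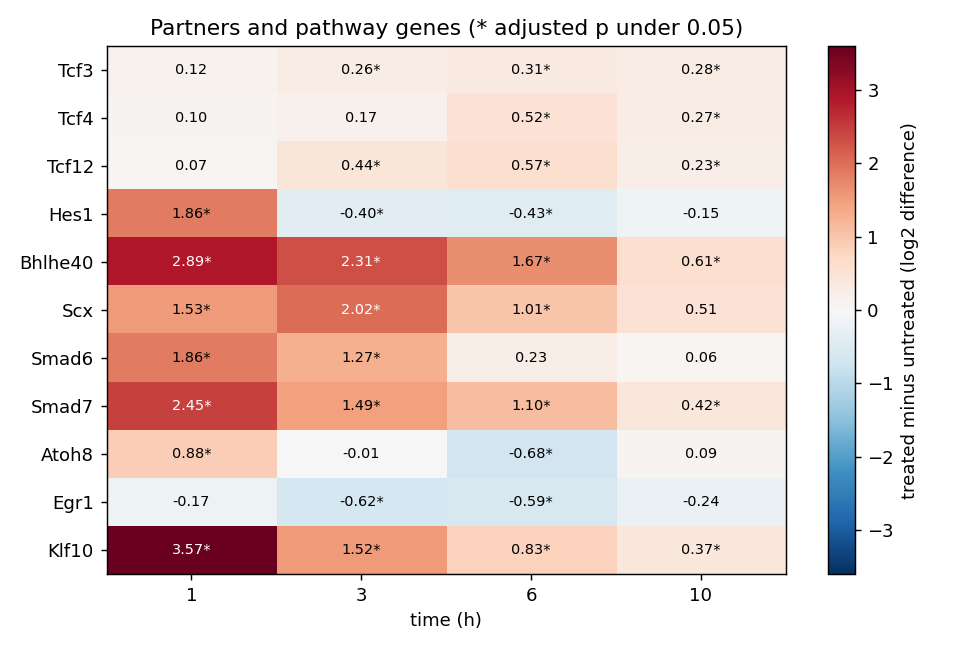
Treated minus untreated log2 differences at 1, 3, 6 and 10 h for E proteins (Tcf3, Tcf4, Tcf12), bHLH repressors (Hes1, Bhlhe40), the bHLH factor Scx, SMAD targets (Smad6, Smad7, Atoh8) and factors reported to act on Id genes (Egr1, Klf10); red is higher and blue lower in treated cells, and an asterisk marks an adjusted p under 0.05. Hes1 and Atoh8 turn from 1.86 and 0.88 at 1 h to -0.43 and -0.68 at 6 h.

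The 3 responding Id genes correlated across the 20 arrays, with a Pearson r of 0.83 between Id1 and Id2, 0.78 between Id1 and Id3 and 0.85 between Id2 and Id3. These points share arrays, time and treatment. Among the 933 genes whose group means span at least 1 log2 unit, as those of Id1 (1.99), Id2 (3.04) and Id3 (2.34) do, the 5 with the highest r were named for each Id gene. For Id1 these were Klf9 (0.97), Noct (0.92), Dusp1 (0.90), Klf10 (0.88) and Jun (0.87). For Id2 they were Sertad1 (0.90), Hes1 (0.89), Mafk (0.87), Atoh8 (0.86) and Cpeb2 (0.86), and for Id3 Fos (0.93), Hbegf (0.89), Sertad1 (0.86), Id2 (0.85) and Fosl1 (0.83). By r with Id1, Id2 had rank 10 and Id3 rank 19 among these 933 genes. By r with Id2, Id3 had rank 7, so other genes were closer in each case.
All 20 arrays entered this choice, so the likeness of these genes at any one time was largely fixed by it, and their values are given as a description. At 6 h the treated-minus-untreated differences of the 5 genes named for Id1, in the order above, were -0.02, -0.16, 0.04, 0.83 and 0.68, beside -0.17 for Id1 itself. Those named for Id2 (-0.75) had -0.37, -0.43, -0.06, -0.68 and -0.03. Those named for Id3 (-1.40) had -0.81, -0.50, -0.37, -0.75 and -0.87. Among the named genes were Klf9, a zinc finger factor, Fos, an immediate early AP-1 factor, and Hbegf, an EGF receptor ligand. Only Sertad1 was among the 5 of more than 1 Id gene.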

How the data were processed

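RNA of 20 cultures was measured on Affymetrix arrays of biotinylated cRNA. The authors deposited log2 expression values, 1 per probe set and array, made with RMA per the submitters' processing notes; for its version and chip description file, the sources used here give nothing. RMA shrinks differences at low signal, and its normalization takes out shifts common to most transcripts. Of 45037 probe sets, 34945 had 1 gene in the platform annotation, 932 several and 9160 none, and the last 2 kinds were left out. With limma 3.58.1 in R 4.3.3, group means were fitted over all 20 arrays (10 residual degrees of freedom, eBayes with a variance trend), and p-values were adjusted by Benjamini-Hochberg within each comparison. The probe set with the highest mean stood for a gene. The script was tested on simulated data. With 2 arrays per group, the median SE of a difference was 0.13.

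The comparisons were treated minus untreated at each time, the change of that difference between neighbouring times, and each arm against its own 0 h. Alternatives were other normalizations, probe set rules, filters, variance models, the compared arrays alone, a replicate block, the 0 h arrays as reference and leaving out each array. Members and lists were chosen with earlier results of these data known. Of each list, up to 4 genes past the threshold were named at the time with most calls, lowest adjusted p first; values at other times, Hes1 and Smad7 among them, were chosen after they were seen. Some listed genes were not analysed here. The E protein, partner and target lists come from general knowledge of these genes.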

Additional observations from a re-analysis of the deposited data

Results flagged for a closer look

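The treated-minus-untreated difference itself changed between neighbouring times in Id1, Id2 and Id3, by limma's test of the change over all genes. From 1 to 3 h it changed by -1.38 for Id1 (adjusted p = 2.48e-11), -2.21 for Id2 (9.59e-10) and -2.54 for Id3 (8.88e-13). From 3 to 6 h it changed by -0.58 for Id1 (1.93e-05), -0.88 for Id2 (5.14e-04) and -0.66 for Id3 (2.54e-04). From 6 to 10 h it turned upward, by 0.31 for Id1 (0.0113), 0.55 for Id2 (0.0317) and 1.07 for Id3 (1.31e-06). The last changes of Id1 and Id2 did not pass with no variance trend and depended on single arrays, as given above. For the Id2 probe set 1422537_a_at, leaving out 1 array gave -1.39 to -1.34 from 3 to 6 h and 0.70 to 0.78 from 6 to 10 h. For the dim 1453596_at it gave -0.69 to -0.22 and -0.09 to 0.39. With 2 arrays per group, no single array was tested as an outlier.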

How the results depend on the processing

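Of 880 recomputed values of the 4 Id genes, 833 stayed on their side of the threshold without a called reversal. Another 32 lost their call, 11 gained one and 4 reversed. Sign changes of values that passed in neither fit were not counted as reversals. There were 71 of these over the Id genes, their further probe sets and the named list genes together. All 4 reversals came from setting treated cells against the 4 arrays of 0 h instead of untreated cells of the same time: Id3 at 3 h (0.10), Id1 at 6 h (0.59), Id2 at 10 h (0.73) and Id3 at 10 h (1.28). A reversal needed a call in the main fit, in the alternative or in both. Id3 at 3 h passed in the main fit but not against the 0 h arrays. Id2 at 10 h passed against the 0 h arrays but not in the main fit. With that reference Id2 at 3 h (0.36) and Id1 at 10 h (1.06) gained a call without a change of sign. It leaves out the change of untreated cells from 0 h, so it is another comparison. Id1 at 10 h (0.14) passed as well among genes above the median level (adjusted p = 0.0416), with array weights (0.0326), with the replicate block (0.0456) and with the compared arrays only (0.0367), and Id2 at 10 h passed with the mean of its probe sets (-0.32) and with the compared arrays only (-0.20). That mean also passed in untreated cells against 0 h at 3 h (0.25) and 6 h (0.29). With no variance trend, Id1 at 6 h (-0.17) and the changes from 6 to 10 h of Id1 (0.31) and Id2 (0.55) did not pass; the Id2 change also failed with every probe set tested (0.55). Untreated Id3 at 1 h lost its call with arrays centred on their median (0.32), and with its value of 0.34 under the mean of probe sets, every probe set tested, no variance trend, array weights and the compared arrays only. The cause of the calls lost or gained in the other fits was not tested.

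Leaving out 1 array at a time gave -0.18 to -0.15 for Id1 at 6 h, -0.40 to -0.27 for Id3 at 10 h, 0.29 to 0.32 and 0.50 to 0.60 for the changes of Id1 and Id2 from 6 to 10 h, 0.11 to 0.28 for untreated Id1 at 1 h, 0.22 to 0.46 for untreated Id3 at 1 h, 0.28 to 0.50 for treated Id2 at 3 h and -0.32 to -0.23 for treated Id3 at 6 h.

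Counts of called genes fell from 1662 to 1099 for treated minus untreated at 10 h, from 828 to 375 for the change from 3 to 6 h, from 444 to 240 for that from 6 to 10 h, from 34 to 1 for untreated cells at 1 h and from 1485 to 865 at 3 h with no variance trend. With the mean of probe sets they were 442 and 287 for the 2 changes and 4 for untreated cells at 1 h, which had 21 with centred arrays, 20 with every probe set and 0 with the compared arrays only. Testing every probe set, over more features, called 5650 (from 3761) and 7229 (from 4742) for untreated cells at 6 and 10 h and 7702 (from 5099) for treated cells at 10 h. Leaving out 1 array gave 833 to 1112 at 10 h, 498 to 622 and 270 to 358 for the 2 changes, 4 to 21 and 621 to 840 for untreated cells at 1 and 3 h, and 378 to 461 (from 639) for treated cells at 1 h.

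Same-numbered samples showed little shared deviation: the correlation exceeded 0.1 in 5 of 45 pairs of groups, and ran from -0.20 to 0.21. The numbers were thus not taken to pair cultures. With the replicate block the count of treated minus untreated was higher at each later time. It was 449 against 407 at 1 h and 2891 against 2780 at 3 h. At 6 h it was 3021 against 2862, and at 10 h 1788 against 1662. The Id1 call at 10 h was the only Id call to change. Dim signal limits Id4 and the Id2 probe set 1453596_at.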
